A study of Saccharomyces cerevisiae with 24 samples.

Results

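AFT1, AFT2, TIS11, CTH1, HMX1, MRS4, SMF3 and CCC2 are budding yeast genes that either switch on the response to low iron or change where iron goes inside the cell. They were picked by gene symbol, each is measured by 1 probe set, and together they are 8 of the 5449 genes that the arrays measured under a gene name. All 8 entered every test, since no gene was dropped for a low level. The study measured total RNA of 24 Saccharomyces cerevisiae cultures on Affymetrix arrays, with 3 biological replicates for each of 8 strains. Its strains lacked SIP1 (sip1Δ), SIP2 (sip2Δ), GAL83 (gal83Δ), each pair of them (sip1Δ sip2Δ, sip1Δ gal83Δ and sip2Δ gal83Δ) or all of them (sip1Δ sip2Δ gal83Δ, called the triple strain), and the reference strain is labelled wild type. Every culture, the reference ones included, grew with air in a bioreactor of 1 L at pH 5.0 and 30 °C on 10 g/L glucose, was diluted at 0.1 per h and was harvested once steady. SIP1, SIP2 and GAL83 encode the interchangeable β-subunits that place the Snf1 kinase in the cell and link it to its substrates, and the design asks what each contributes alone and in the absence of the others. The labels name no parent strain and no number of clones for the deletions.

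Aft1 and its relative Aft2 are transcription factors that gather in the nucleus when the supply of iron-sulfur clusters runs low. There they switch on the iron regulon, which covers uptake of iron at the cell surface, its release from the vacuole and its recycling from heme. Tis11, also known as Cth2, and its paralog Cth1 act on RNA instead, binding messages of iron-using proteins and hastening their decay so that scarce iron is spared. HMX1, MRS4, SMF3 and CCC2 are known targets of the regulators, and each moves iron or what iron needs: heme is opened by Hmx1, iron enters mitochondria through Mrs4 and leaves the vacuole through Smf3, and Ccc2 supplies copper to the iron oxidase Fet3.

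Levels are deposited log2 intensities. A change is a difference of strain means on the log2 scale, printed ± its standard error from a model of all 24 arrays, and each strain has n = 3. Array medians lay between 10.90 and 11.07, and those of the single deletion strains were the lower ones, so the median change over all genes was -0.09 in sip1Δ, -0.12 in sip2Δ and -0.10 in gal83Δ. Subtracting each array's median moved these to 0.02 in all 3 strains. The deleted genes read near 2 wherever the label says they were deleted, except in the array labelled sip1Δ sip2Δ replicate 3, where SIP2 read 6.0, and in the array labelled sip1Δ gal83Δ replicate 2, where GAL83 read 9.72. A further pair of arrays stood apart in the iron genes, reference replicate 1 and gal83Δ replicate 1. Values with and without them are given beside the results that rest on them. The pair was picked from the values of these genes, and leaving it out enlarges their falls in the single deletion strains. The p-values without the pair are therefore not independent support.

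In each single deletion strain the iron genes stood below the reference strain. All 8 passed the test in sip1Δ, 7 in sip2Δ and 5 in gal83Δ, each of them lower, at an adjusted p under 0.05 in limma. Over all genes tested, the share called lower was 29.1% in sip1Δ, 32.1% in sip2Δ and 30.6% in gal83Δ. On the scale as deposited, the share of the iron genes that fell was above it in each strain. The median change of the 8 genes was -0.61 in sip1Δ, -0.77 in sip2Δ and -0.58 in gal83Δ, and -0.51, -0.63 and -0.46 in the same order of strains once array medians were subtracted. The 3 arrays of a strain all lay below the 3 reference arrays for 6 of the 8 genes in sip1Δ (38.3% of all genes did so), for 7 in sip2Δ (42.7%) and for 3 in gal83Δ (39.1%). AFT1, AFT2, HMX1, MRS4 and SMF3 were the 5 genes called in all 3 strains, and of these MRS4 alone also passed in all 3 both with array medians subtracted and after quantile normalization. The 3 comparisons share the same reference arrays, so they are not independent of each other.

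**Figure D1:**
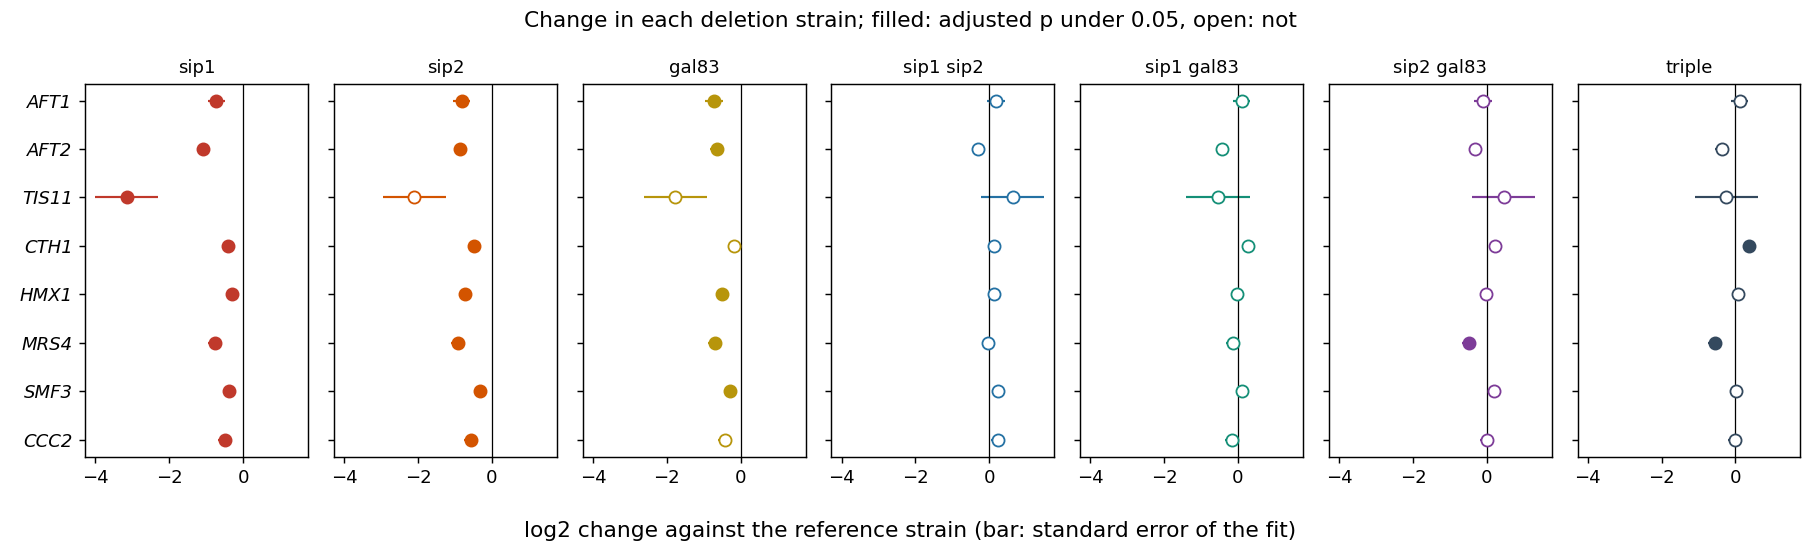
Log2 change of each of the 8 iron genes (rows) against the reference strain, with a panel for each deletion strain and bars for the standard error of the fit (n = 3 arrays per strain); filled points have an adjusted p under 0.05. Points lie left of 0 in the single deletion strains, with TIS11 farthest at -3.15 in sip1Δ. In the sip1Δ sip2Δ strain they lie between -0.31 (AFT2) and 0.63 (TIS11), and none is filled.

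AFT1 (YGL071W), the gene of the main activator of the regulon, read 9.66, 9.74 and 9.46 in sip1Δ, 9.57, 9.64 and 9.38 in sip2Δ and 10.14, 9.45 and 9.30 in gal83Δ, against 10.05, 10.51 and 10.50 in the reference strain. Every sip1Δ and sip2Δ array lay below every reference array, while gal83Δ replicate 1 lay above the lowest reference array. AFT1 fell by 0.73 ± 0.23 in sip1Δ (1.66-fold lower, adjusted p = 0.0187), by 0.82 ± 0.23 in sip2Δ (1.76-fold lower, adjusted p = 0.00904) and by 0.72 ± 0.23 in gal83Δ (1.65-fold lower, adjusted p = 0.0198). In strains that lack several subunits AFT1 read 10.46, 10.67 and 10.47 (sip1Δ sip2Δ), 10.67, 10.52 and 10.15 (sip1Δ gal83Δ), 9.62, 10.54 and 10.59 (sip2Δ gal83Δ) and 10.39, 10.49 and 10.52 (triple strain). The range of each of these strains overlapped that of the reference strain, and sip2Δ gal83Δ replicate 1 sat among the single deletion strains. With reference replicate 1 and gal83Δ replicate 1 left out, AFT1 stood at -1.13 in gal83Δ (adjusted p = 0.00272). After quantile normalization the changes in sip1Δ, sip2Δ and gal83Δ were -0.56, -0.57 and -0.53, and none of the 3 passed (adjusted p = 0.0587, 0.0579 and 0.0732).

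AFT2 (YPL202C) encodes the second activator, which overlaps with Aft1 in its targets. Its levels were 8.05, 7.65 and 7.54 in sip1Δ, 8.45, 7.74 and 7.71 in sip2Δ and 8.45, 8.04 and 8.06 in gal83Δ, against 8.66, 9.06 and 8.76 in the reference strain. No array of a single deletion strain reached the lowest reference array, and AFT2 fell by 1.08 ± 0.17 in sip1Δ (2.11-fold lower, adjusted p = 0.000144), by 0.86 ± 0.17 in sip2Δ (adjusted p = 0.000821) and by 0.64 ± 0.17 in gal83Δ (adjusted p = 0.00696). After quantile normalization AFT2 passed in sip1Δ alone (-0.67, adjusted p = 0.0019), and stood at -0.38 in sip2Δ (adjusted p = 0.0524) and -0.31 in gal83Δ (adjusted p = 0.106). Unlike the other 7 genes except MRS4, AFT2 had its highest mean in the reference strain, 8.82 ± 0.21 (SD, n = 3). The sip1Δ sip2Δ, sip1Δ gal83Δ, sip2Δ gal83Δ and triple strains stood -0.31, -0.43, -0.31 and -0.37 from it, and none of these passed (adjusted p between 0.098 and 0.640), although all 12 of their arrays lay below the lowest reference array. Those arrays read 8.57, 8.64 and 8.34 in sip1Δ sip2Δ, 8.45, 8.47 and 8.27 in sip1Δ gal83Δ and 8.45, 8.61 and 8.48 in sip2Δ gal83Δ. AFT2 values also coincided more than is common on these arrays: 7 of the 24 lay within 0.005 of each other, between 8.4467 and 8.4502, and the triple strain's 3 arrays had an SD of 5.8e-05. As many coinciding arrays were found for 81 of the 4933 genes with a mean over 7 (1.64%).

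**Figure D2:**
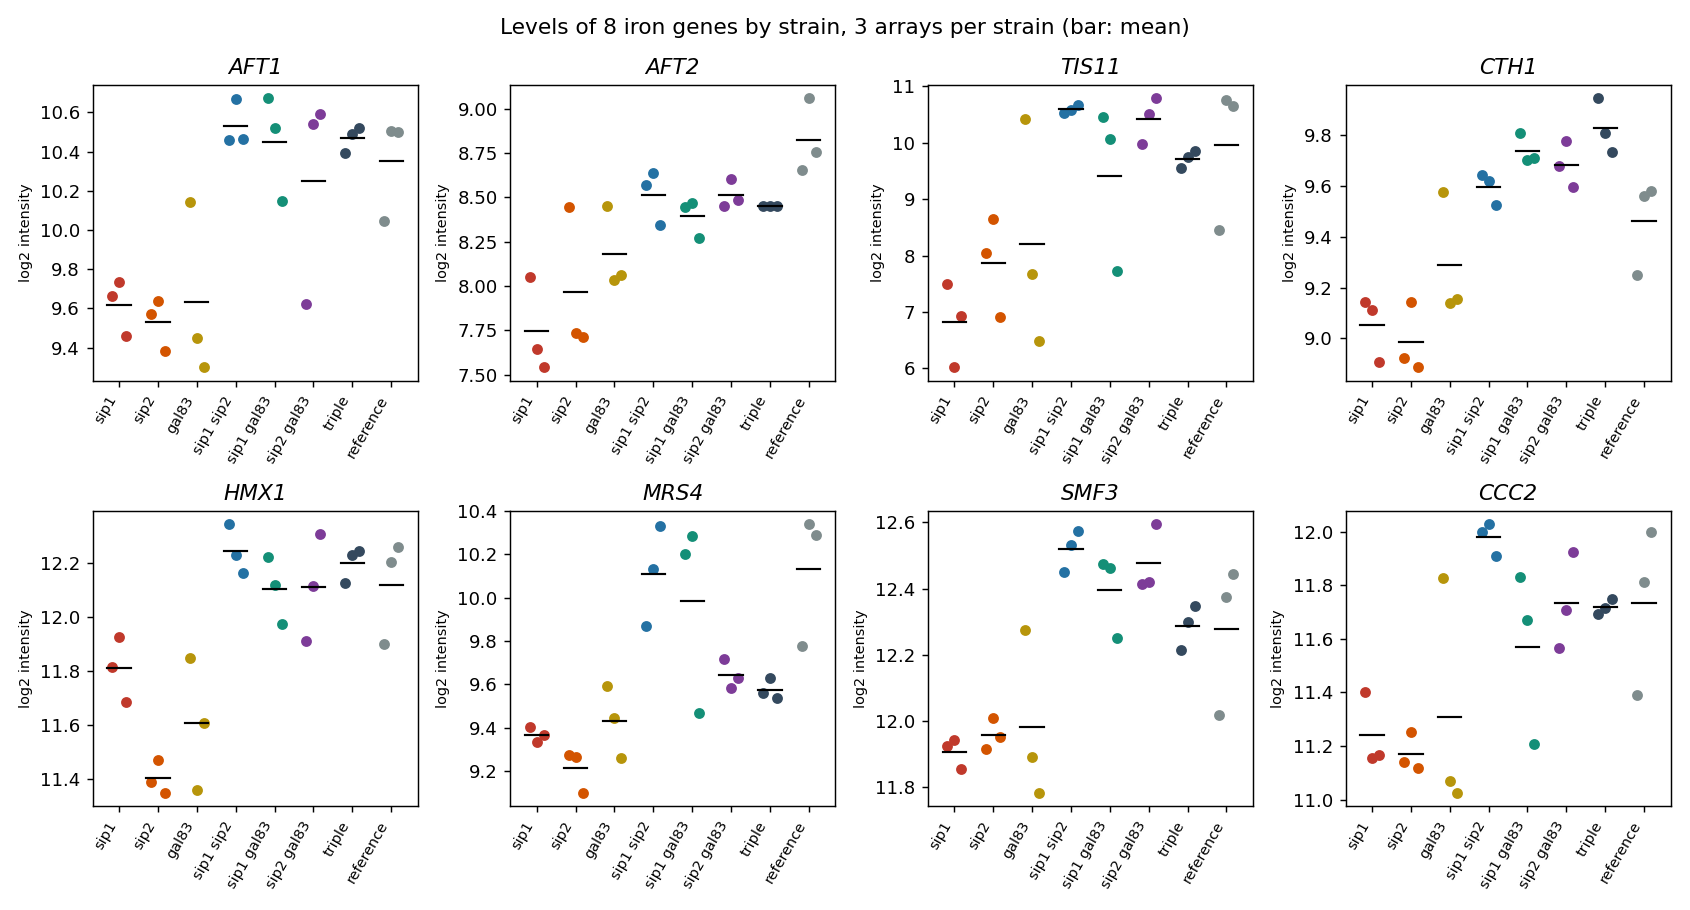
Log2 intensity of the 8 iron genes in each array, with a panel per gene (each with its own axis), 3 points per strain and a bar at the strain mean. The single deletion strains on the left of each panel sit low, for example 9.53 to 9.63 in mean AFT1 level, against 10.35 in the reference strain on the right.

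TIS11 (YLR136C), whose product brings down messages of iron-using proteins, changed most. It read 7.49, 6.02 and 6.93 in sip1Δ, 8.04, 8.64 and 6.92 in sip2Δ and 10.42, 7.67 and 6.49 in gal83Δ, against 8.46, 10.76 and 10.66 in the reference strain. Every sip1Δ array was below every reference array, and TIS11 fell by 3.15 ± 0.85 there (8.86-fold lower, adjusted p = 0.00741). The changes of -2.09 ± 0.85 in sip2Δ (adjusted p = 0.0591) and -1.76 ± 0.85 in gal83Δ (adjusted p = 0.110) did not pass. Reference replicate 1, which enters both changes, read 8.46, where the other reference arrays read over 10.6. In gal83Δ, replicate 1 was as high as the reference strain. Left out alone, any of reference replicate 1, gal83Δ replicate 1, gal83Δ replicate 3 or sip1Δ gal83Δ replicate 3 let the sip2Δ change pass. Without reference replicate 1 and gal83Δ replicate 1, TIS11 stood at -2.84 in sip2Δ (adjusted p = 0.00387) and at -3.63 ± 0.73 in gal83Δ (adjusted p = 0.00198). That fit was chosen after these values were seen, so its p-values are not independent support. The other strains read 10.53, 10.59 and 10.66 (sip1Δ sip2Δ), 10.46, 10.07 and 7.73 (sip1Δ gal83Δ), 9.97, 10.51 and 10.79 (sip2Δ gal83Δ) and 9.55, 9.74 and 9.85 (triple strain). Of these arrays sip1Δ gal83Δ replicate 3 was the lowest, and it alone lay below the lowest reference array.

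CTH1 (YDR151C), the paralog known to act early in iron limitation, moved over a much smaller range. Its arrays gave 9.14, 9.11 and 8.91 in sip1Δ, 8.92, 9.14 and 8.89 in sip2Δ and 9.57, 9.14 and 9.16 in gal83Δ, against 9.25, 9.56 and 9.58 in the reference strain. CTH1 fell by 0.41 ± 0.11 in sip1Δ (1.33-fold lower, adjusted p = 0.0076) and by 0.48 ± 0.11 in sip2Δ (1.39-fold lower, adjusted p = 0.00251), with no overlap of arrays in either. Both calls were lost after quantile normalization, at -0.16 in each strain (adjusted p = 0.227 and 0.235). In gal83Δ it stood at -0.17 ± 0.11 (adjusted p = 0.233), a value that becomes 0.07 after quantile normalization and -0.42 without the pair of arrays that stood apart (adjusted p = 0.00359). CTH1 was the only iron gene that passed the test in the higher direction against the reference strain, rising by 0.37 ± 0.11 in the triple strain, which read 9.95, 9.81 and 9.73 (adjusted p = 0.0158). The share of all genes called higher in that comparison was 14.9%, and the call was lost without reference replicate 1 or without triple replicate 1 (highest adjusted p 0.0945).

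HMX1 (YLR205C), the gene of the heme oxygenase, had 11.82, 11.93 and 11.69 in sip1Δ, 11.39, 11.47 and 11.35 in sip2Δ and 11.85, 11.36 and 11.61 in gal83Δ, against 11.90, 12.21 and 12.26 in the reference strain. The sip2Δ and gal83Δ arrays lay wholly below the reference arrays, and the highest sip1Δ array overlapped the lowest of them. HMX1 fell by 0.72 ± 0.12 in sip2Δ (1.65-fold lower, adjusted p = 0.000167), by 0.52 ± 0.12 in gal83Δ (1.43-fold lower, adjusted p = 0.00255) and by 0.31 ± 0.12 in sip1Δ (1.24-fold lower, adjusted p = 0.0476). The sip1Δ call sat at the threshold and was lost in 17 of the 24 fits that each left out an array, and with array medians subtracted (-0.21, adjusted p = 0.138). In sip1Δ sip2Δ it read 12.35, 12.23 and 12.16, in sip1Δ gal83Δ 12.22, 12.12 and 11.97, in sip2Δ gal83Δ 11.91, 12.12 and 12.31, and in the triple strain 12.13, 12.23 and 12.25, all overlapping the reference strain.

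MRS4 (YKR052C) encodes an iron carrier of the inner mitochondrial membrane. It read 9.40, 9.33 and 9.36 in sip1Δ, 9.27, 9.27 and 9.10 in sip2Δ and 9.59, 9.44 and 9.26 in gal83Δ, against 9.78, 10.34 and 10.29 in the reference strain. No array overlapped, and MRS4 fell by 0.77 ± 0.18 in sip1Δ (1.70-fold lower, adjusted p = 0.00239), by 0.92 ± 0.18 in sip2Δ (1.89-fold lower, adjusted p = 0.000516) and by 0.70 ± 0.18 in gal83Δ (1.63-fold lower, adjusted p = 0.00434). Strains lacking both SIP2 and GAL83 were low as well: sip2Δ gal83Δ read 9.72, 9.58 and 9.63, and the triple strain read 9.56, 9.63 and 9.54. The falls there were 0.49 ± 0.18 (adjusted p = 0.0365) and 0.56 ± 0.18 (adjusted p = 0.0183). By contrast, sip1Δ sip2Δ gave 9.87, 10.13 and 10.33, and sip1Δ gal83Δ gave 10.20, 10.28 and 9.47, and neither passed against the reference strain (changes of -0.02 and -0.15). MRS3, the paralog of MRS4, fell by 0.62 ± 0.15 in sip2Δ and by 0.39 ± 0.15 in gal83Δ, and stood at -0.31 ± 0.15 in sip1Δ (adjusted p = 0.0994). It was not low in the triple strain, at 0.19 ± 0.15 (adjusted p = 0.329).

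SMF3 (YLR034C), an NRAMP transporter gene for iron release from the vacuole, gave 11.92, 11.94 and 11.85 in sip1Δ, 11.91, 12.01 and 11.95 in sip2Δ and 12.27, 11.89 and 11.78 in gal83Δ, against 12.02, 12.38 and 12.44 in the reference strain. It fell by 0.37 ± 0.11 in sip1Δ (1.30-fold lower, adjusted p = 0.0135), by 0.32 ± 0.11 in sip2Δ (adjusted p = 0.0288) and by 0.30 ± 0.11 in gal83Δ (adjusted p = 0.0418), and only gal83Δ replicate 1 overlapped the reference arrays. After array medians were subtracted, the changes were -0.27, -0.18 and -0.18 in the same order and none passed (adjusted p = 0.054, 0.190 and 0.196). SMF3 read 12.45, 12.53 and 12.57 in sip1Δ sip2Δ, all above the reference arrays, yet the difference of 0.24 ± 0.11 did not pass (adjusted p = 0.526). The levels were 12.47, 12.46 and 12.25 in sip1Δ gal83Δ, 12.41, 12.42 and 12.59 in sip2Δ gal83Δ and 12.21, 12.30 and 12.35 in the triple strain. Its relative SMF1, which takes up manganese at the cell surface, rose by 0.20 ± 0.05 in sip1Δ, by 0.25 ± 0.05 in sip2Δ and by 0.25 ± 0.05 in gal83Δ. SMF2, of intracellular vesicles, stood at 0.02, -0.07 and -0.16 and did not pass.

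CCC2 (YDR270W), the copper pump of the Golgi that readies Fet3 for iron uptake, read 11.40, 11.16 and 11.16 in sip1Δ, 11.14, 11.25 and 11.12 in sip2Δ and 11.83, 11.07 and 11.02 in gal83Δ, against 11.39, 11.81 and 11.9987 in the reference strain. It fell by 0.56 ± 0.19 in sip2Δ (1.48-fold lower, adjusted p = 0.0251) and by 0.49 ± 0.19 in sip1Δ (1.41-fold lower, adjusted p = 0.0490). The sip1Δ call was lost in 15 of the 24 fits that each left out an array. With array medians subtracted neither passed, at -0.42 in sip2Δ (adjusted p = 0.0678) and -0.39 in sip1Δ (adjusted p = 0.0918). In gal83Δ it stood at -0.43 ± 0.19 (adjusted p = 0.0843), with replicate 1 above the middle reference array, and at -0.86 without the pair of arrays that stood apart (adjusted p = 0.000897). CCC2 read 11.9995, 12.03 and 11.91 in sip1Δ sip2Δ, 11.83, 11.67 and 11.21 in sip1Δ gal83Δ, 11.57, 11.71 and 11.92 in sip2Δ gal83Δ and 11.69, 11.71 and 11.75 in the triple strain. All of these strains overlapped the reference strain, with sip1Δ gal83Δ replicate 3 below its lowest array. FET3, the iron oxidase that receives its copper, fell by 1.81 ± 0.62 in sip1Δ and stood at -1.29 ± 0.62 in sip2Δ and -1.24 ± 0.62 in gal83Δ, neither of which passed (adjusted p = 0.104 and 0.119). FTR1, the iron permease bound to Fet3, fell by 0.94 ± 0.23 in sip1Δ and by 0.73 ± 0.23 in sip2Δ and stood at -0.46 ± 0.23 in gal83Δ (adjusted p = 0.120).

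Several of these calls rest on few arrays. Without reference replicate 2 or without reference replicate 3, the genes called numbered 4 in sip1Δ (AFT1, HMX1, SMF3 and CCC2 lost), 5 in sip2Δ (SMF3 and CCC2 lost) and 3 in gal83Δ (AFT1 and SMF3 lost), and 3 remained in gal83Δ without its replicate 2 or its replicate 3. Without reference replicate 1 and gal83Δ replicate 1, all 8 genes passed in all 3 single deletion strains, a fit chosen after the data were seen. Of all 5449 genes, 1354, 1524 and 1288 were called lower in that fit in sip1Δ, sip2Δ and gal83Δ. Across fits each leaving out an array, all-gene calls in either direction ran from 1795 to 2632, 1875 to 2691 and 1836 to 2703.

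Loss of a second subunit was mostly accompanied by levels close to the reference strain. AFT2 was an exception, at -0.31 in sip1Δ sip2Δ, -0.43 in sip1Δ gal83Δ, -0.31 in sip2Δ gal83Δ and -0.37 in the triple strain. Its arrays in these strains all lay below the reference arrays, though none of these changes passed. TIS11 stood at 0.63, -0.54, 0.46 and -0.25 in the same order of strains, each ± 0.85, and did not pass either. In sip1Δ sip2Δ and in sip1Δ gal83Δ 0 of the 8 genes passed in limma, with SMF3 alone in the first strain and AFT2 and CTH1 in the second under an unadjusted p of 0.05. In sip2Δ gal83Δ only MRS4 passed, and in the triple strain MRS4 and CTH1. The share of all genes called in either direction was 0.257% in sip1Δ sip2Δ (14 genes) and 10.9% in sip1Δ gal83Δ, so few calls of any kind were made in the first. The share called lower was 26.4% in sip2Δ gal83Δ and 23.5% in the triple strain, beside 1 of the 8 iron genes in each. Medians of the 8 changes were 0.16, -0.08, -0.00 and -0.00 in the same order of strains. The MRS4 call in sip2Δ gal83Δ was lost without any 1 of that strain's arrays, without reference replicate 2 or 3, and with array medians subtracted (-0.41, adjusted p = 0.0598). In the triple strain it was lost without reference replicate 2 or 3, or triple replicate 3.

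Removal of the last subunit was tested by setting the triple strain against each strain that lacked a pair. MRS4 read 9.56, 9.63 and 9.54 in the triple strain, against 9.87, 10.13 and 10.33 in sip1Δ sip2Δ, and fell by 0.54 ± 0.18 (1.45-fold lower, adjusted p = 0.0273, where 18% of all genes were called lower). The MRS4 call was lost in 5 of the 24 fits that left out an array, and also without the 3 doubted arrays, those against their labels and sip2Δ gal83Δ replicate 1, which had the lowest array weight. The remaining 7 genes did not pass in this comparison, TIS11 included at -0.88 ± 0.85 (adjusted p = 0.471) although its 3 triple arrays all lay below the 3 sip1Δ sip2Δ arrays. Against sip1Δ gal83Δ and against sip2Δ gal83Δ, 0 of the 8 passed in limma, while 13.2% and 14.5% of all genes did so in either direction. At an unadjusted p under 0.05 there were 1 (MRS4) and 0.

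A contrast that uses no reference array set the 9 arrays of the single deletion strains against the 9 arrays of the strains lacking a pair. All 8 genes were lower in the single deletion strains and all passed, beside 36.1% of all genes called lower. TIS11 fell by 2.52 ± 0.49 (5.73-fold lower, adjusted p = 0.000334), with arrays from 6.02 to 10.42 (median 7.49) in single and from 7.73 to 10.79 (median 10.51) in double deletion strains. AFT1 fell by 0.82 ± 0.13 (1.76-fold lower, adjusted p = 6.38e-05). The other 6 genes fell by 0.51 to 0.57, which is 1.42-fold to 1.49-fold. HMX1 arrays ran from 11.35 to 11.93 (median 11.61) in single and from 11.91 to 12.35 (median 12.16) in double deletion strains. For HMX1, CTH1 and SMF3, 8 of 9 arrays on each side lay beyond every array of the other kind. The median over the 8 genes was -0.56, or -0.48 with array medians subtracted, and -0.05 over all genes. All 8 genes passed in each of the 24 fits that left out an array, without the 3 doubted arrays, and without the pair that stood apart. Across those 24 fits 2782 to 3231 of all genes were called in either direction. Without the doubted arrays 2060 of all genes were lower, and without the pair 1898.

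The interaction of a pair of subunit genes asks whether a deletion has the same effect with and without the other deletion. For all 8 genes and all 3 pairs of subunits the interaction was positive and passed, 24 of 24 tests, where 38.9% (SIP1 with SIP2), 36.6% (SIP1 with GAL83) and 33.9% (SIP2 with GAL83) of all genes were called positive. Deleting SIP1 changed AFT1 by 1.00 in a strain that already lacked SIP2 and by -0.73 in the reference strain, an interaction of 1.73 ± 0.33 (adjusted p = 0.000283). For TIS11 the same step was 2.73 without SIP2 and -3.15 in the reference strain, an interaction of 5.88 ± 1.21 (adjusted p = 0.00058). MRS4 had the same kind of change, 0.90 without SIP2 and -0.77 in the reference strain (interaction 1.66 ± 0.25, adjusted p = 2.94e-05). Medians over the 8 genes were 1.46, 1.08 and 1.16 for the pairs in the order given, beside 0.17, 0.15 and 0.13 over all genes. With array medians subtracted they were 1.26, 0.88 and 0.98, all 24 values stayed positive, and CCC2 for SIP1 with GAL83 no longer passed (0.56, adjusted p = 0.0727). The 3 interactions reuse the same reference and single deletion arrays.

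**Figure D3:**
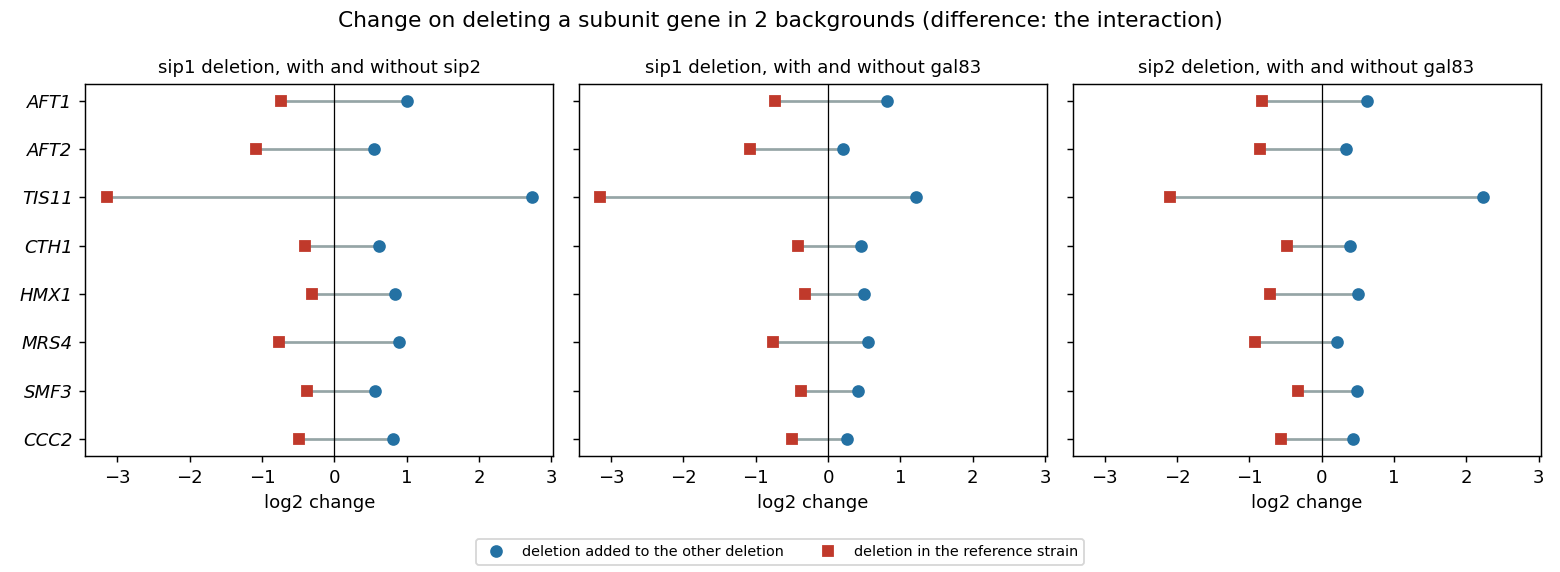
Log2 change of the 8 iron genes on deleting a subunit gene, in a strain that already lacks another (circles) and in the reference strain (squares), with a panel for each pair of subunits and a line whose length is the interaction. Circles lie right of 0 and squares left of it in every row, for example 1.00 and -0.73 for AFT1 on deleting SIP1 with and without the sip2 deletion.

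All 8 genes differed among the 8 strains by the moderated F test, as did 71.4% of all genes. Ordered by mean level, the single deletion strains took the lowest 3 of 8 places for all 8 genes. How many of all genes had this order was not counted. Array medians of the single deletion strains were also the lower ones, and 36.1% of all genes were called lower in them than in the double deletion strains. Neighbours in these orders mostly overlapped in the range of their arrays, and for AFT1, TIS11, CTH1, SMF3 and CCC2 every pair of neighbours did. Neighbours were apart only for AFT2 (reference above sip1Δ sip2Δ, and sip2Δ gal83Δ above the triple strain), for HMX1 (sip1Δ gal83Δ above sip1Δ) and for MRS4 (sip1Δ above sip2Δ). The sip1Δ sip2Δ strain had the highest mean of AFT1 (10.53 ± 0.12), TIS11 (10.59 ± 0.07), HMX1 (12.25 ± 0.09), SMF3 (12.52 ± 0.06) and CCC2 (11.98 ± 0.06, SD, n = 3 each). The triple strain led for CTH1 with 9.83 ± 0.11 and the reference strain led for AFT2 and MRS4.

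Within a strain, the 8 genes tended to be high or low in the same array. Reference replicate 1 was the lowest of its strain for 8 of 8 genes, where 34.5% of all genes had their lowest value, by 0.17 to 1.5 below the strain mean. In the 25 further regulon targets listed below it was the lowest for 17. The gal83Δ replicate 1 array was the highest of its strain for 8 of 8 genes (33.7% of all genes) and for 18 of the 25 targets, by 0.16 to 2.23 above the mean, and its GAL83 level was 2.08. Similarly, sip1Δ gal83Δ replicate 3 was the lowest of its strain for 7 of 8 genes (45.6% of all genes) and for 19 of 25 targets. Array medians of reference replicates 1, 2 and 3 were 11.068, 11.072 and 11.072.

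**Figure D4:**
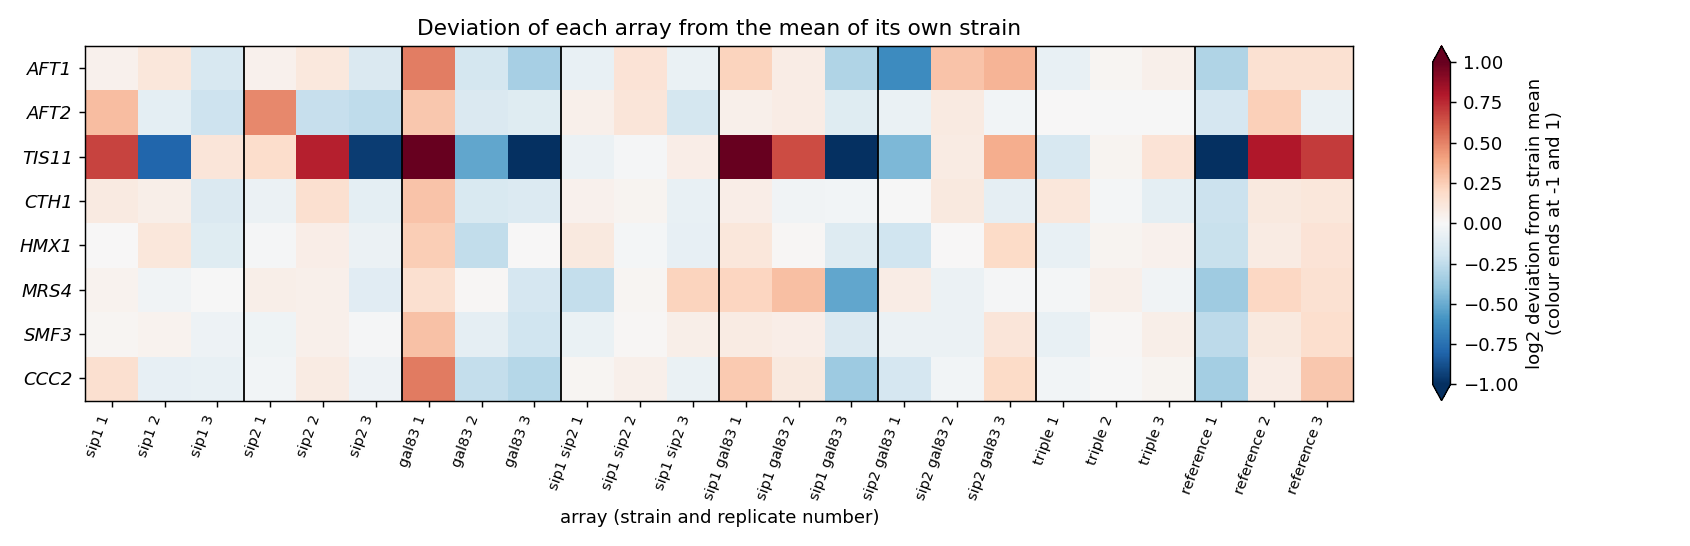
Deviation of each array from the mean of its own strain (log2, colour, which ends at 1 and -1) for the 8 iron genes (rows) across the 24 arrays (columns, 3 per strain). Reference replicate 1 is blue and gal83Δ replicate 1 red in all 8 rows, and TIS11 has the widest deviations, 2.23 in gal83Δ replicate 1.

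Across the 24 deviations from strain means, the 28 pairs of iron genes had a Pearson r of 0.33 to 0.93 with a median of 0.65, all positive, as a description of arrays that share their RNA and scale. TIS11 with CCC2 (0.93) and SMF3 with CCC2 (0.91) were the closest, and AFT2 with SMF3 (0.33) the loosest pair. Subtracting array medians left a range of 0.26 to 0.93. Over the 8 strain means, r for the same pairs ran from 0.63 (CTH1 with MRS4) to 0.95 (TIS11 with SMF3), with a median of 0.84.

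Genes whose 8 strain means were most like those of each iron gene were read off by Pearson r, over genes that differed among strains. TIS11 was closest to SIT1 (r = 0.98) and ARN1 (0.98), both transporters of iron bound to siderophores, and to YOL159C-A (0.98), which lies 2 genes from the siderophore transporter gene ENB1. SIT1 read 8.62, 7.51 and 7.39 in sip1Δ, against 9.65, 11.67 and 11.72 in the reference strain, the same low first reference array that TIS11 had. CCC2 was closest to AKR1 (0.97), a palmitoyltransferase gene that lies 5 genes from CCC2, then to PFA5 and ENB1 (0.96 each), and SMF3 was also closest to AKR1 (0.98), followed by CUE1 and ERV29. The regulators and the remaining genes had no known iron gene among their nearest 3: YNG1, TRM13 and CMP2 for AFT1, WHI2, SPT20 and NNF1 for AFT2, MAK31, HIS2 and MSB4 for CTH1, CCT4, TFA2 and RAD59 for HMX1, and SPR6, ENT4 and RTT105 for MRS4, with r between 0.96 and 1.00.

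Against the reference strain, 29.1%, 32.1% and 30.6% of all genes fell and 10.3%, 8.55% and 10.6% rose in sip1Δ, sip2Δ and gal83Δ, and the counts of related genes that follow stand beside these shares. Of 25 other known targets of Aft1 or Aft2, 17 fell and 1 rose in sip1Δ, 14 fell and 1 rose in sip2Δ, and 10 fell and 1 rose in gal83Δ. ATX1, the copper chaperone that feeds Ccc2, was the target that rose, by 0.55 ± 0.15, 0.58 ± 0.15 and 0.56 ± 0.15 in these strains. The siderophore transporter gene SIT1 fell by 3.17 ± 0.85 in sip1Δ, fell by 2.38 ± 0.85 in sip2Δ and fell by 2.22 ± 0.85 in gal83Δ, and ENB1, of the same kind, fell by 1.82 ± 0.45, by 2.04 ± 0.45 and by 1.39 ± 0.45, while ARN2, another such gene, stood at 0.01 in all 3. The mean ARN2 level was 1.97 in each of these strains and in the reference strain, which is near the level of the deleted genes. A fall of ARN2 could therefore not have been seen, and its value is no contrast to SIT1 and ENB1. After quantile normalization SIT1 no longer passed in sip2Δ (adjusted p = 0.0551) or gal83Δ (adjusted p = 0.0635). FIT2, a cell wall mannoprotein that retains siderophores, fell by 2.76 ± 0.76 in sip1Δ and by 1.96 ± 0.76 in sip2Δ, where the call was lost with array medians subtracted (adjusted p = 0.0524). FIT1, of the same family, fell by 1.29 ± 0.43 in gal83Δ. The ferric reductase gene FRE3 fell by 1.92 ± 0.42 in sip2Δ. Medians of the 25 were -0.85, -0.73 and -0.58 in sip1Δ, sip2Δ and gal83Δ, and 16, 11 and 9 of them fell with array medians subtracted. On that scale 1024, 1004 and 997 of all 5449 genes fell. Without the pair of arrays that stood apart, 18, 19 and 18 of the 25 fell, beside 1354, 1524 and 1288 of all genes.

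Between single and double deletion strains, 21 of the 25 targets fell, beside 36.1% of all genes, 3 did not pass and FRE4 rose. With array medians subtracted 18 fell and 4 rose, beside 1425 and 1781 of all 5449 genes. After quantile normalization 19 fell and 2 rose, beside 1467 and 1466 of all genes. Without the 3 doubted arrays 18 fell and 2 rose. FRE4, a ferric reductase gene, read 8.45, 9.35 and 8.44 in sip1Δ, 8.42, 7.15 and 8.90 in sip2Δ and 3.22, 6.71 and 9.34 in gal83Δ, while sip1Δ sip2Δ read 6.16, 5.61 and 5.29, sip1Δ gal83Δ 2.84, 4.15 and 4.29, and sip2Δ gal83Δ 2.58, 2.08 and 2.61. Its difference was 3.82 ± 0.57 as measured (adjusted p = 2.61e-05), with its gal83Δ arrays alone spanning most of the range. The sip2Δ gal83Δ arrays lay near the level of the deleted genes, so that the true difference may be larger than measured. Against the reference strain, 0 of the 25 fell in sip1Δ sip2Δ and in sip1Δ gal83Δ, and 1 rose in the latter. In these strains 0.257% and 10.9% of all genes were called in either direction. In sip2Δ gal83Δ 5 fell and 1 rose, and in the triple strain 5 fell and 2 rose. The shares of all genes that fell there were 26.4% and 23.5%. Medians of the 25 were 0.09, -0.15, 0.03 and 0.13 in the same order of strains.

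**Figure D5:**
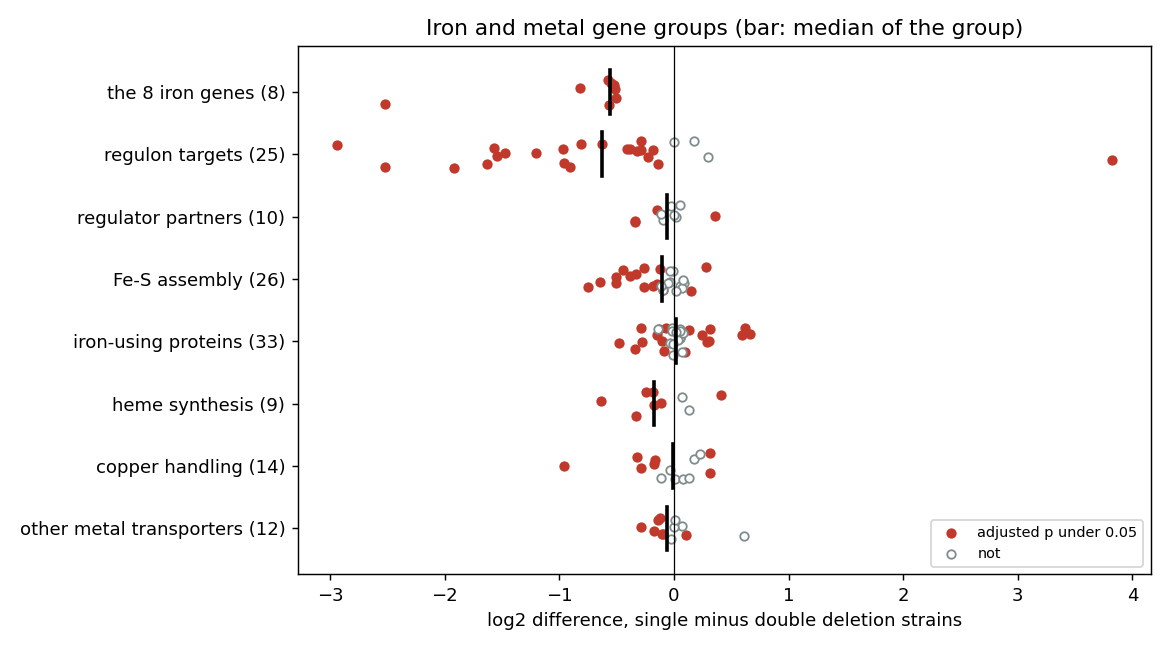
Log2 difference between single and double deletion strains for the 8 iron genes and 7 lists of related genes (rows, number of genes in brackets); each point is a gene, filled where the adjusted p is under 0.05, and bars mark medians. The iron genes and regulon targets sit mostly left of 0 with medians of -0.56 and -0.63, apart from FRE4 at 3.82. The other lists straddle 0. Those called lower were 13 of 26 (iron-sulfur assembly), 6 of 9 (heme synthesis) and 6 of 12 (metal transporters), beside 36.1% of all genes. They were 3 of 10 (regulator partners), 9 of 33 (iron-using proteins) and 5 of 14 (copper handling). Those called higher were 2, 1, 1, 1, 9 and 2 in the same order. With array medians subtracted, the 13, 6 and 6 became 9, 3 and 1, beside 1425 of all 5449 genes.

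Among genes of proteins that tell Aft1 and Aft2 about iron, or answer high iron, the share that fell was close to or below that of all genes. Of 10, 3 fell in sip1Δ (29.1% of all genes), 3 in sip2Δ (32.1%) and 2 in gal83Δ (30.6%), and 0 rose, though 2, 2 and 1 rose in the same order of strains with array medians subtracted. Of all 5449 genes, 1272, 1247 and 1263 rose on that scale. FRA1, which relays the cluster signal to the regulators, fell by 0.47 ± 0.08, by 0.44 ± 0.08 and by 0.45 ± 0.08 in sip1Δ, sip2Δ and gal83Δ. YAP5, the activator of genes for storing iron, fell by 1.01 ± 0.22 in sip1Δ and by 0.68 ± 0.22 in sip2Δ, a call lost after quantile normalization (-0.24, adjusted p = 0.359). TYW1, an iron-sulfur enzyme of tRNA modification, fell by 0.31 ± 0.07, by 0.48 ± 0.07 and by 0.42 ± 0.07 in the 3 strains. The glutaredoxin genes GRX3 and GRX4, whose products bind clusters and hold the regulators in check, did not pass in any of the 3. Between single and double deletion strains, GRX4 rose by 0.36 ± 0.09 and GRX3 fell by 0.15 ± 0.05.

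Genes of iron-sulfur cluster assembly fell about as often as all genes. Of 26, 7 fell and 2 rose in sip1Δ, 10 fell and 1 rose in sip2Δ, and 9 fell and 1 rose in gal83Δ, beside 29.1%, 32.1% and 30.6% of all genes that fell. With array medians subtracted these became 3 lower and 9 higher, 6 and 4, and 4 and 5, so the balance of the list depends on the scale. The balance of all genes did so too, at 1024 lower and 1272 higher, 1004 and 1247, and 997 and 1263 of 5449. CFD1 and NBP35, the scaffold of the cytosolic machinery, were low on either scale: CFD1 fell by 0.85 ± 0.07, by 0.88 ± 0.07 and by 0.72 ± 0.07, and NBP35 fell by 0.61 ± 0.10, by 0.73 ± 0.10 and by 0.55 ± 0.10 in sip1Δ, sip2Δ and gal83Δ. CIA1, a later factor of the same machinery, fell by 0.41 ± 0.15 in sip1Δ and by 0.88 ± 0.15 in sip2Δ, and its sip1Δ call was lost with array medians subtracted (-0.31, adjusted p = 0.0908). ISU2, a mitochondrial scaffold gene and itself a regulon target, fell by 0.74 ± 0.10 in sip1Δ. MET18 and ARH1 fell by 0.53 ± 0.09 and by 0.51 ± 0.13 in gal83Δ.

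Iron-using proteins, whose messages are of the kind that Tis11 and Cth1 bring down, had no common direction in the single deletion strains. Of 33, 7 fell and 4 rose in sip1Δ, 7 fell and 2 rose in sip2Δ, and 9 fell and 2 rose in gal83Δ, with medians of -0.00, -0.03 and -0.02, so a smaller share fell than of all genes (29.1%, 32.1% and 30.6%). With array medians subtracted the balance turned, to 6 lower and 11 higher in sip1Δ, 4 and 9 in sip2Δ, and 5 and 11 in gal83Δ. All genes turned too, to 1024 lower and 1272 higher in sip1Δ, 1004 and 1247 in sip2Δ, and 997 and 1263 in gal83Δ, of 5449. Between single and double deletion strains 9 fell and 9 rose, which became 4 lower and 15 higher with array medians subtracted and 9 and 9 after quantile normalization. Of all 5449 genes, 1967 fell and 983 rose as deposited, 1425 and 1781 with array medians subtracted, and 1467 and 1466 after quantile normalization. CYC7, a cytochrome c gene, rose by 0.59 ± 0.14 in sip1Δ, by 0.47 ± 0.14 in sip2Δ and by 1.02 ± 0.14 in gal83Δ, whereas CYT1, the gene of cytochrome c1, fell by 0.51 ± 0.09, by 0.63 ± 0.09 and by 0.58 ± 0.09. CTT1, the cytosolic catalase gene, fell by 0.97 ± 0.19 in sip1Δ and by 0.83 ± 0.19 in gal83Δ. Its means were 11.30 in sip1Δ, 11.85 in sip2Δ, 11.44 in gal83Δ and 12.28 in the reference strain. They were 11.97 in sip1Δ sip2Δ, 11.16 in sip1Δ gal83Δ, 10.55 in sip2Δ gal83Δ and 10.13 in the triple strain. The peroxisomal catalase gene CTA1 rose by 0.79 ± 0.22 in sip1Δ. BIO2, the iron-sulfur enzyme that makes biotin, rose by 0.60 ± 0.06 in single over double deletion strains. In the strains that lack several subunits, 0 of the 33 passed in sip1Δ sip2Δ, 3 fell and 2 rose in sip1Δ gal83Δ, 14 fell and 1 rose in sip2Δ gal83Δ (26.4% of all genes fell), and 12 fell and 2 rose in the triple strain (23.5%).

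Heme synthesis, the pathway whose product Hmx1 opens, had 3 genes of 9 lower and 1 higher in sip1Δ, 4 and 0 in sip2Δ, and 3 and 1 in gal83Δ, again beside 29.1%, 32.1% and 30.6% of all genes lower. HEM1, the gene of the entry enzyme, was the one that rose, by 0.48 ± 0.14 in sip1Δ and by 0.44 ± 0.14 in gal83Δ, and HEM25, the mitochondrial glycine carrier gene, fell by 0.84 ± 0.17 in sip2Δ. With array medians subtracted 0, 1 and 0 of the 9 fell, beside 1024, 1004 and 997 of all 5449 genes. Of 14 copper genes around CCC2, 3 fell and 3 rose in sip1Δ, 1 fell and 3 rose in sip2Δ, and 2 fell and 4 rose in gal83Δ, which were fewer falls and more rises than the shares of all genes. COX17, which carries copper to cytochrome oxidase, rose by 0.63 ± 0.12, by 0.61 ± 0.12 and by 0.63 ± 0.12, and the metallothionein gene CUP1-1, whose near-identical copy the probes may not tell apart, rose by 0.34 ± 0.10, by 0.27 ± 0.10 and by 0.45 ± 0.10 in sip1Δ, sip2Δ and gal83Δ. Of 12 genes for transport of other metals, 2 fell and 1 rose in sip1Δ, 3 fell and 1 rose in sip2Δ, and 2 fell and 1 rose in gal83Δ, below the shares of all genes that fell. COT1, a vacuolar zinc and cobalt transporter gene that is also a regulon target, fell by 0.46 ± 0.13, by 0.45 ± 0.13 and by 0.71 ± 0.13 in these strains, and TRE1, which helps to degrade Smf1, fell by 0.39 ± 0.08, by 0.26 ± 0.08 and by 0.20 ± 0.08. With array medians subtracted TRE1 no longer passed in sip2Δ (-0.12, adjusted p = 0.215) or gal83Δ (-0.09, adjusted p = 0.362).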

How the data were processed

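The authors deposited log2 intensities per probe set. The submitters' processing notes name RMA and affy without versions, and which arrays were normalized together is not given in the sources used here. The table holds 5716 probe sets, of which 5498 name 1 gene, 0 several and 218 none; 12 symbols were updated through the RefSeq gene table, and 49 second probe sets of a gene were left out (the one with the highest mean was kept), which left 5449 genes. Genes of low level were kept, and 0 columns went unused.

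Strains were taken from the sample titles, and the labels call the replicates biological. The model, fitted in limma 3.58.1 (R 4.3.3; lmFit, contrasts.fit and eBayes), gave each strain its own mean over the 24 arrays and each gene 1 spread on 16 residual degrees of freedom; precision is limited by how many arrays there are, and p-values measure the spread between these cultures. Tests were two-sided, calls needed p under 0.05 after Benjamini-Hochberg adjustment over the 5449 genes of a comparison, and no minimum fold was set. Comparisons were each deletion strain against the reference strain, the triple strain against each double deletion strain, the 3 interactions, and the mean of the single against the mean of the double deletion strains. The highest correlation between arrays was 0.9988, and 0 pairs were identical.

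The 8 genes, the 7 lists of related genes and the comparisons were chosen with earlier results of these data known. The text names the 8 genes whether called or not, for each the 3 genes with the most similar strain means, the called list members with up to 4 of the largest changes in the single deletion strains and in the single against double contrast, and MRS3, SMF1, SMF2, FET3, FTR1 and the deleted genes; the other list genes were chosen after their values were seen.

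Replicate numbers were checked for pairing by correlating deviations from strain means, and were not used as a block. Alternatives were subtracting array medians, quantile normalization, dropping the lowest 25% of genes by mean, a floor at the level bounding that group (9.746), every probe set, trend and robust options of eBayes, array weights, a replicate block, the compared groups alone, leaving out each array in turn, and leaving out 3 doubted arrays together. Leaving out reference replicate 1 and gal83Δ replicate 1 together was added after the data were seen. The fit was tested on simulated data.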

Additional observations from a re-analysis of the deposited data

Results flagged for a closer look

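For each of the 8 iron genes, the effect of deleting a β-subunit gene differed between strains with and without another subunit gene, by the interaction test of the fit to all arrays, with positive estimates of the change in the strain already lacking the other subunit and negative ones in the reference strain. The changes in the strains already lacking a subunit were not tested, and in the reference strain those of TIS11 in sip2Δ and gal83Δ and of CTH1 and CCC2 in gal83Δ did not pass. For SIP1 with SIP2 the interactions were 1.73 for AFT1, 1.63 for AFT2, 5.88 for TIS11, 1.02 for CTH1, 1.15 for HMX1, 1.66 for MRS4, 0.93 for SMF3 and 1.30 for CCC2. For SIP1 with GAL83 they were 1.55 for AFT1, 1.29 for AFT2, 4.37 for TIS11, 0.86 for CTH1, 0.81 for HMX1, 1.32 for MRS4, 0.79 for SMF3 and 0.76 for CCC2. For SIP2 with GAL83 they were 1.44 for AFT1, 1.19 for AFT2, 4.32 for TIS11, 0.87 for CTH1, 1.23 for HMX1, 1.13 for MRS4, 0.81 for SMF3 and 0.99 for CCC2. The 3 sets share the reference arrays, and each pair of sets shares the arrays of a single deletion strain. Across the 24 fits that each left out an array, 23 of these 24 calls held, and CCC2 for SIP1 with GAL83 had an adjusted p of up to 0.0771.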

How the results depend on the processing

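Counts of the 8 iron genes called moved as follows, and the cause was not tested unless named. In sip1Δ the 8 became 5 with array medians subtracted, 4 after quantile normalization, 3 with values raised to the 25% level and 5 with the compared groups alone. In sip2Δ the 7 became 2 after quantile normalization. In gal83Δ the 5 became 2 after quantile normalization, 2 with values raised and 2 with the compared groups alone. Without reference replicate 1 and gal83Δ replicate 1 the 5 became 8, in a fit chosen once the values were known. In that fit 1288 of all genes were called lower in gal83Δ. Of all 5449 genes, 975, 901 and 978 were called lower in sip1Δ, sip2Δ and gal83Δ after quantile normalization. AFT2, TIS11, CTH1 and MRS4 have means under 9.746, so leaving out the lowest 25% of genes tested only 4 of the genes: 4 were called in sip1Δ, 4 in sip2Δ, 3 in gal83Δ, 0 in sip2Δ gal83Δ, 0 in the triple strain, 0 for the triple strain against sip1Δ sip2Δ, and 4 in each interaction, in the single against double contrast and in the F test, which called 8 otherwise (71.4% of all genes). In sip1Δ gal83Δ the 0 became 1 after quantile normalization and 2 with array weights, in sip2Δ gal83Δ the 1 became 3 with array weights and 0 with the compared groups alone, and for the triple strain against sip1Δ sip2Δ the 1 became 2, 5, 0 and 3 after quantile normalization, with the compared groups alone, without the 3 doubted arrays and without the pair that stood apart. Array weights gave 1 for the triple strain against sip1Δ gal83Δ and 1 against sip2Δ gal83Δ. With values raised, 5 passed in the interactions of GAL83 with SIP1 and with SIP2. No AFT2 array read over 9.06, so the floor of 9.746 made all its values equal and AFT2 could not pass. CTH1 read at most 9.58 in the reference strain and 9.57 in the single deletion strains, so these values became equal too. With values raised, the loss of AFT2 calls, and of CTH1 calls in single deletion strains, was therefore fixed by the floor. Leaving out each array in turn gave 4 to 8 in sip1Δ, 5 to 8 in sip2Δ, 3 to 8 in gal83Δ, 0 in sip1Δ sip2Δ and in sip1Δ gal83Δ, 0 to 1 in sip2Δ gal83Δ, 1 to 3 in the triple strain, 0 to 1 for it against sip1Δ sip2Δ and against sip1Δ gal83Δ, 0 against sip2Δ gal83Δ, 7 to 8 for SIP1 with GAL83, and 8 for the other interactions, the single against double contrast and the F test. All probe sets and eBayes with trend and robust changed no call. Same-numbered arrays of different strains had a median correlation of deviations of 0.0361 over 84 pairs (-0.352 to 0.333, 30 over 0.1). Arrays with different numbers had a median of -0.018 over 168 pairs (-0.374 to 0.427, 36 over 0.1). These values do not settle whether the numbers pair the samples. A replicate block gave 6 genes in sip1Δ, 7 in sip2Δ and 4 in gal83Δ. No value with the compared groups alone exists for the F test. Over all genes, subtracting array medians turned 1586 lower and 562 higher in sip1Δ to 1024 and 1272, 1751 and 466 in sip2Δ to 1004 and 1247, and 1668 and 575 in gal83Δ to 997 and 1263.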
